A study of Mus musculus with 6 samples.

Results

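The let-7 family of mature miRNAs was described in mouse serum after a nerve transplant. It comprised 10 entries of the deposited count table, matched by name: let-7a-5p, let-7b-5p, let-7c-5p, let-7d-5p, let-7d-3p, let-7e-5p, let-7f-5p, let-7g-5p, let-7i-5p and miR-98-5p. The table held 1281 entries, of which 507 had at least 1 read in any library, and all 10 members had reads in every library. Male C57BL/6 mice of 10 to 12 weeks, per the labels, received a sciatic nerve graft from Balb/c donors. The first group received the immunosuppressant FK506, also called tacrolimus, which acts on calcineurin in T cells, under the skin at 1 mg/kg per day, and its serum was taken at days 3, 7 and 14. The second group carried the same graft without FK506 and was sampled at the same days. Every animal was therefore grafted, and no ungrafted serum entered the comparison. The labels also name Balb/c once as the recipient, so the strain pairing is given here only as the sample labels state it. Each combination of treatment and day was 1 small RNA library. The labels give 3 animals per group and day, and no source used here says whether a library pooled them.

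The let-7 miRNAs are among the most conserved of animals. They are made as hairpin precursors whose maturation is blocked by LIN28 in early development, and they accumulate as cells differentiate. All members made from the 5′ arm carry the same seed, the short stretch near the 5′ end that pairs with target mRNAs, and so share most predicted targets, among them Ras and Hmga2 transcripts. In blood they are carried by cells, vesicles and proteins, and their level in serum mixes many sources. Fewer cells of a type and less miRNA per cell cannot be told apart in such bulk samples.

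The mature sequences are shown because a few bases at known positions are all that separates the members, and because the differences between them bear on every count that follows. They were taken from RefSeq (GRCm38.p6), which matched 10 of the 10 members, and are written 5′ to 3′ with the seed (bases 2 to 8) in capitals.
let-7a-5p: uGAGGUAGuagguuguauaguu
let-7c-5p: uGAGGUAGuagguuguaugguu
let-7b-5p: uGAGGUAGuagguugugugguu
let-7e-5p: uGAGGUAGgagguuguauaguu
let-7f-5p: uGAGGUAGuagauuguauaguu
let-7d-5p: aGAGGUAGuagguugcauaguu
let-7g-5p: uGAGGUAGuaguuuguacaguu
let-7i-5p: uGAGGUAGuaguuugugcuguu
miR-98-5p: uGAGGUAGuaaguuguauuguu
let-7d-3p: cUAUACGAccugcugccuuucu

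The 9 members of the 5′ arm shared the seed GAGGUAG, and let-7d-3p, from the other arm of the let-7d hairpin, had the seed UAUACGA. Counted from 1 at the 5′ end of let-7a-5p, the differences were A19G in let-7c-5p, A17G and A19G in let-7b-5p, U9G in let-7e-5p and G12A in let-7f-5p. Of the 36 pairs among the 9, 4 differed at 1 base and 10 at 2 bases. Reads down to 15 nt were kept by the authors, per the labels' protocols, and 4 pairs shared at least their first 15 bases. Of these pairs, let-7a-5p and let-7c-5p were identical over their first 18 bases, and let-7g-5p and let-7i-5p over their first 16. No source used here says how reads that match several entries were counted, so single members and their sum are uncertain to that extent. The entries miR-199a-3p and miR-199b-3p, whose mature sequences in RefSeq are the same, had equal counts in all 6 libraries (104, 53 and 447 with FK506, 45, 34 and 25 without it). Whether short reads shared by let-7 members entered more than 1 count was not tested.

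The members come from 12 hairpin genes in RefSeq, and let-7a-5p, let-7c-5p and let-7f-5p are each encoded by 2 of them. Mirlet7a-1, Mirlet7f-1 and Mirlet7d lie together on chromosome 13, from 48536012 to 48538272 on the minus strand (GRCm38), in exons of a long noncoding RNA gene in GENCODE. Mirlet7c-2 and Mirlet7b lie 621 nt apart on chromosome 15, in exons of the noncoding Lncppara. Mirlet7f-2 and Mir98 lie 785 nt apart on chromosome X within an intron of Huwe1, a ubiquitin ligase gene. Mirlet7g lies in an intron of Wdr82 on chromosome 9, and Mirlet7e (chromosome 17, from 17830352 to 17830444) in an intron of Spaca6. Since let-7a-5p, let-7c-5p and let-7f-5p each come from hairpins on different chromosomes, their reads cannot be assigned to a cluster.

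Library totals ran from 4992998 to 5806228 counts with FK506 and from 4897727 to 5357177 without it. Between 93.8% and 98.0% of each library lay in miR-486-5p, a red cell miRNA, and miR-3107-5p, which overlaps it. These entries had nearly equal counts in every library, for example 2448326 and 2440098 in FK506 day 3. Where the same reads entered both, the totals exceed the number of reads and percentages of the total are too low. The extent of this was not tested. The reads outside this pair numbered 104574, 103058 and 359061 with FK506 at days 3, 7 and 14, and 160163, 298117 and 158423 without it. Intervals are exact 95% intervals of counts and cover counting error only, since reads carry no molecular identifiers. The libraries stood apart in 2 ways that touch the let-7 results. The effective size that trimmed-mean (TMM) scaling gave the FK506 day 14 library was 2.08 times its total, against 0.697 to 1.06 times in the other 5. The untreated day 7 library held 12171 reads of 9 neuron and glia miRNAs, with none of the 9 at 0, against 162, 303 and 557 reads with FK506 and 138 and 121 in the other untreated libraries, where 4 to 7 of the 9 were at 0.

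The let-7 family made up a smaller part of the serum miRNAs with FK506 at each day. Its 10 members together held 12771, 9347 and 23521 reads with FK506 at days 3, 7 and 14, and 28797, 59195 and 27753 without it. As a percentage of the reads outside miR-486-5p and miR-3107-5p this was 12.2% (interval 12.0 to 12.4), 9.07% (8.89 to 9.25) and 6.55% (6.47 to 6.63) with FK506. In untreated serum it was 18.0% (17.8 to 18.2), 19.9% (19.7 to 20.0) and 17.5% (17.3 to 17.7). The arms did not overlap, with a mean of 9.28% ± 2.84 with FK506 and 18.5% ± 1.24 without it (SD over the 3 days, n = 3 libraries each). The course over days depended on the scale. Of the library total, in which reads of the pair may be counted more than once, the family held 0.256%, 0.184% and 0.405% with FK506 at days 3, 7 and 14. Without FK506 it held 0.561%, 1.21% and 0.518%. The FK506 day 14 library was thus the lowest of its arm per read outside the pair and the highest of its arm by library total.

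Beyond the family's size, its composition differed between the arms, and this does not depend on how libraries are scaled to each other. With FK506 the family was led by let-7c-5p, let-7i-5p and let-7f-5p, and without it by let-7f-5p and let-7i-5p together with let-7a-5p (days 7 and 14) or let-7c-5p (day 3). The member let-7c-5p had 32.9%, 29.2% and 25.3% of family reads with FK506 at days 3, 7 and 14, and 15.9%, 7.67% and 12.0% without it. Every FK506 library was above every untreated one for this member.

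**Figure D1:**
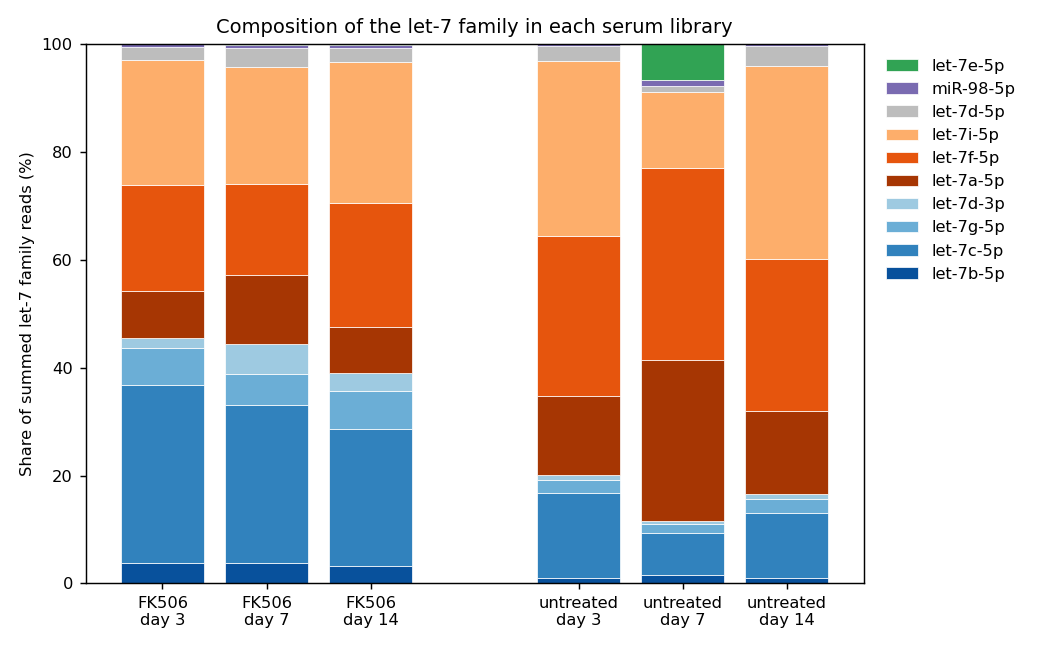
Share of each member in the summed reads of the 10 let-7 members (y axis, percent) in each of the 6 libraries (x axis), with FK506 on the left and untreated on the right. The blue members (let-7b-5p, let-7c-5p, let-7g-5p and let-7d-3p) take more of each FK506 bar, the let-7c-5p share being 25.3% to 32.9% with FK506 and 7.67% to 15.9% without it, and let-7e-5p is visible only in the untreated day 7 bar.

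The shares of 3 less abundant members also stood higher with FK506. The member let-7g-5p, made from the Wdr82 intron, had 6.90%, 5.75% and 7.17% of family reads with FK506 at days 3, 7 and 14, and 2.47%, 1.63% and 2.70% without it. For let-7b-5p the shares were 3.81%, 3.83% and 3.24% with FK506 and 0.931%, 1.65% and 1.00% without it. The other strand, let-7d-3p, had 1.89%, 5.66% and 3.21% with FK506 and 0.896%, 0.566% and 0.958% without it. None of these 3 members overlapped between the arms, and let-7d-3p was the most variable of them within FK506.

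The shares that were lower with FK506 without overlap were those of let-7a-5p and let-7f-5p, which differ from each other at 1 base. The share of let-7a-5p was 8.73%, 12.8% and 8.63% with FK506 at days 3, 7 and 14, and 14.7%, 30.0% and 15.3% without it. The share of let-7f-5p was 19.6%, 16.7% and 23.0% with FK506 and 29.6%, 35.6% and 28.2% without it. Both were lower in every FK506 library than in any untreated one, and both were highest in the untreated day 7 library.

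The remaining 4 members overlapped between the arms. The member let-7i-5p had 23.2%, 21.8% and 26.0% of family reads with FK506 at days 3, 7 and 14, and 32.5%, 14.0% and 35.8% without it. Its share was thus also lower with FK506 at days 3 and 14, and only the untreated day 7 library fell below the FK506 range. The share of let-7d-5p was 2.48%, 3.59% and 2.59% with FK506 and 2.66%, 1.10% and 3.62% without it. That of miR-98-5p lay between 0.470% and 0.633% with FK506 and between 0.361% and 1.10% without it. The share of let-7e-5p was 0.193% or less in 5 libraries and 6.75% in untreated day 7.

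Shares of a family are bound to each other, because they add to a fixed sum. Set against the summed family, 4 of 10 members had no overlap between the arms on the higher side and 2 on the lower side. Of all 153 miRNAs tested the same way, 53.6% lay higher with FK506 without overlap and 1.31% lower. The 2 on the lower side were let-7a-5p and let-7f-5p. A higher position relative to the family was thus common among all miRNAs, and the 4 members that had it are not set apart from them. In an edgeR quasi-likelihood fit over all 153 miRNAs with libraries scaled to the summed family, 0 of 10 members passed an adjusted p of 0.05, against 12.4% of all miRNAs called higher. In that fit 3 members had an unadjusted p under 0.05, all on the higher side, against 35.9% of all miRNAs, so their count is near that background. The log2 change relative to the family was 2.04 ± 0.815 for let-7d-3p (SE, adjusted p 0.0745), 1.65 ± 0.777 for let-7b-5p (0.112) and 1.57 ± 0.761 for let-7g-5p (0.118), each higher at 3 of 3 days.

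The size of the shift in composition can be given as the percentage of family reads that would have to move to another member to turn one library into the other. At days 3, 7 and 14 it was 25.5%, 43.2% and 22.7% between the FK506 and the untreated library. Among the FK506 libraries it was 8.26% to 12.1%. Untreated day 3 and day 14 differed by 5.33%, and untreated day 7 differed from them by 29.4% and 30.1%. The difference between the arms at days 3 and 14 was thus larger than that within either arm, once the untreated day 7 library was set aside, and no test was made of this.

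Ratios between members of the same library, picked after their values were seen, showed the shift without any denominator. The ratio of let-7c-5p to let-7a-5p was 3.77 (interval 3.53 to 4.03), 2.29 (2.14 to 2.46) and 2.94 (2.79 to 3.09) with FK506 at days 3, 7 and 14. In untreated serum it was 1.08 (1.04 to 1.13), 0.256 (0.248 to 0.265) and 0.783 (0.748 to 0.819). These members are identical over their first 18 bases, and the lowest FK506 ratio was above the highest untreated one, where let-7c-5p and let-7a-5p were near parity at day 3.

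The ratio of let-7b-5p to let-7a-5p differed between the arms by a similar factor at each day. It was 0.436, 0.300 and 0.375 with FK506 at days 3, 7 and 14, and 0.0634, 0.0550 and 0.0655 without it. The FK506 ratio was 6.87, 5.46 and 5.72 times the untreated one at the 3 days, and the 3 untreated libraries lay close together. For let-7g-5p over let-7i-5p, which share their first 16 bases, the ratio was 0.298, 0.264 and 0.276 with FK506 and 0.0761, 0.116 and 0.0755 without it.

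**Figure D2:**
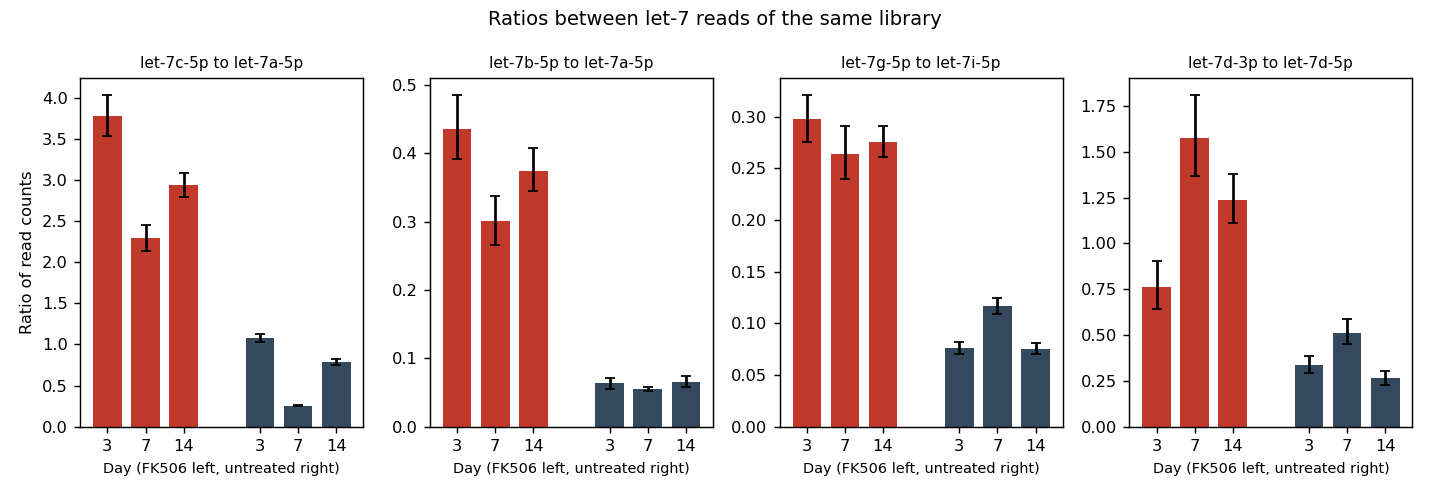
Ratio of the read counts of 2 let-7 entries of the same library (y axes, 1 panel per ratio) by day, with FK506 in red on the left and untreated in dark grey on the right; bars are single libraries and error bars are exact 95% counting intervals. In all 4 panels, picked after their values were seen, the lowest FK506 bar is above the highest untreated bar, for example 2.29 with FK506 against 1.08 without it for let-7c-5p to let-7a-5p. Other ratios overlapped between the arms, among them let-7f-5p to let-7a-5p, let-7i-5p to let-7f-5p and let-7b-5p to let-7c-5p. Outside the family, miR-99b-5p to miR-125a-5p did not overlap either (0.754 to 0.934 with FK506, 0.441 to 0.665 without it).

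The arms of the let-7d hairpin were compared because both strands are cut from 1 precursor. The ratio of let-7d-3p to let-7d-5p was 0.763 (interval 0.643 to 0.905), 1.57 (1.37 to 1.81) and 1.24 (1.11 to 1.38) with FK506 at days 3, 7 and 14. Without FK506 it was 0.337 (0.291 to 0.388), 0.514 (0.449 to 0.587) and 0.264 (0.230 to 0.303). The 3p strand was thus the more abundant strand at FK506 days 7 and 14 and the less abundant in the other 4 libraries. The FK506 ratio was 2.27, 3.06 and 4.69 times the untreated one, a mean log2 difference of 1.67 ± 0.53 (SD, n = 3 days). An exact two-sided permutation of the treatments within days gave p = 0.25, the smallest that 3 days allow.

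Marker miRNAs of other sources differed between the same libraries. All counts given here are raw reads, not scaled to library size. The lymphocyte miRNA miR-150-5p had 5531, 3926 and 9054 reads with FK506 at days 3, 7 and 14. Without FK506 it had 948, 426 and 622 reads. The leukocyte miRNA miR-142-3p had 19, 14 and 97 reads with FK506 and 30, 17 and 6 without it. Its raw count was higher with FK506 only at day 14. Of the platelet and myeloid miRNAs, miR-223-3p had 13, 15 and 67 reads with FK506 and 10, 9 and 6 without it. Reads of miR-126-3p numbered 17, 28 and 191 with FK506 and 27, 42 and 28 without it. The hepatocyte miRNA miR-122-5p had 30, 26 and 1 reads with FK506 and 5, 0 and 60 without it. Of the red cell miRNAs, miR-486-5p had 2448326 to 2727053 reads with FK506 and 2302676 to 2603634 without it. Reads of miR-451a numbered 776, 765 and 4012 with FK506 and 1326, 523 and 796 without it. Those of miR-144-3p were 69, 49 and 68 with FK506 and 43, 44 and 28 without it. The part of these sources in the let-7 composition was not tested.

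Levels between libraries depend on the scaling, which was TMM over the 153 miRNAs that passed a filter on low counts. All 10 members passed it. On this scale let-7a-5p had 321, 317 and 168 depth-scaled counts (CPM) with FK506 at days 3, 7 and 14, and 777, 3431 and 954 CPM without it. The member let-7f-5p had 718, 416 and 448 CPM with FK506 and 1568, 4074 and 1760 CPM without it. For let-7i-5p the levels were 851, 541 and 507 CPM with FK506 and 1718, 1604 and 2234 CPM without it. These 3 abundant members were lower in every FK506 library than in any untreated one.

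The same held for 2 scarcer members. The level of let-7d-5p was 91.1, 89.4 and 50.5 CPM with FK506 and 141, 126 and 226 CPM without it. The level of miR-98-5p was 17.2, 12.2 and 12.3 CPM with FK506 and 19.1, 126 and 26.5 CPM without it, so that at day 3 the libraries were close. In all, 5 of 10 members were lower without overlap and 0 were higher, where 13.1% of the 153 miRNAs were lower without overlap and 10.5% higher. Per read outside the red cell pair the counts were 3 lower (let-7a-5p, let-7f-5p and miR-98-5p) and 1 higher (let-7d-3p), against 6.54% lower and 16.3% higher among all.

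**Figure D3:**
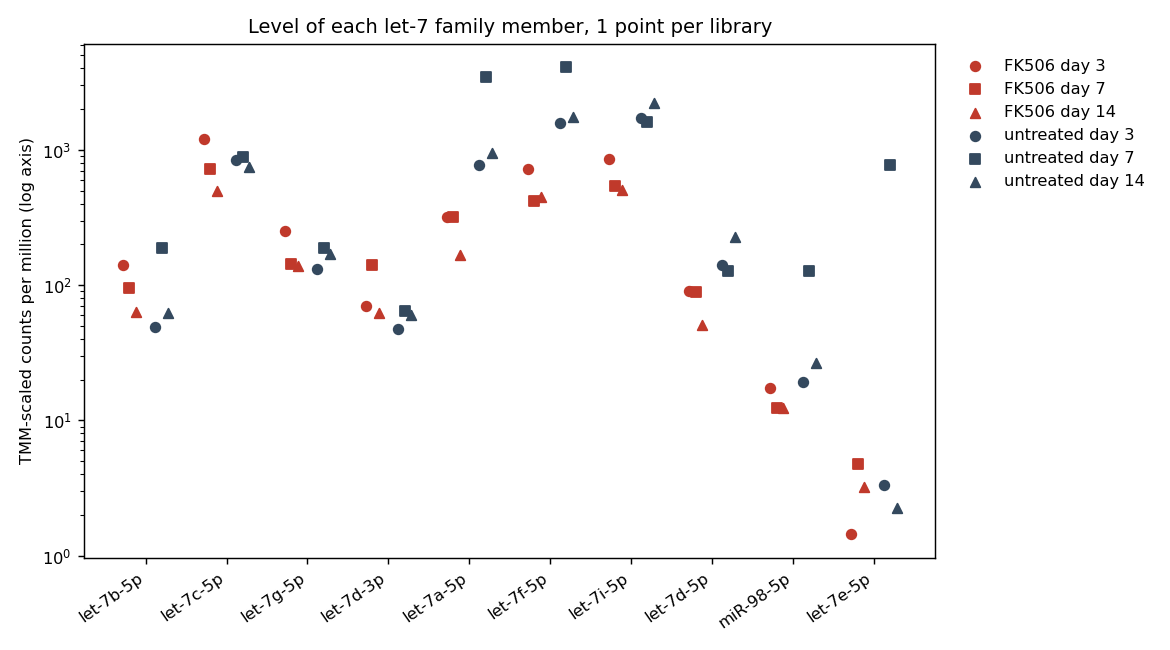
TMM-scaled level of each member (y axis, CPM, log axis) in each library, with FK506 in red left of untreated in dark grey; each point is 1 library and the marker gives the day. The let-7a-5p points lie at 168 to 321 CPM with FK506 and at 777 to 3431 CPM without it, while let-7c-5p, let-7g-5p, let-7b-5p and let-7d-3p overlap.

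The other members overlapped on the TMM scale. The level of let-7c-5p was 1209, 727 and 493 CPM with FK506 at days 3, 7 and 14, and 839, 879 and 747 CPM without it. That of let-7g-5p was 253, 143 and 140 CPM with FK506 and 131, 187 and 169 CPM without it. The levels of let-7b-5p were 140, 95.3 and 63.0 CPM with FK506 and 49.3, 189 and 62.5 CPM without it. In these 3 members the highest FK506 level was that of day 3. For let-7d-3p the levels were 69.6, 141 and 62.6 CPM with FK506 and 47.4, 64.8 and 59.8 CPM without it. At each day the FK506 library was the higher of the pair for let-7d-3p.

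By total reads over the 6 libraries the order of the members was let-7f-5p (46884), let-7i-5p (38688), let-7a-5p (30542), let-7c-5p (25329), let-7g-5p (5530), let-7e-5p (4083), let-7d-5p (3687), let-7b-5p (3126), let-7d-3p (2386) and miR-98-5p (1129). The first 4 members overlapped in their ranges of reads, as did the members from let-7g-5p down, so these neighbours are not separated by the spread between libraries, whereas let-7c-5p (2733 to 5961 reads) and let-7g-5p (537 to 1686 reads) did not overlap. Without the untreated day 7 library, which held 59195 of the 161384 family reads, the order was let-7i-5p (30398), let-7f-5p (25828), let-7c-5p (20787) and let-7a-5p (12807). Among all entries of a library, let-7f-5p ranked from 4 to 19 and let-7a-5p from 5 to 36. The place of let-7e-5p rested on 1 library.

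The comparison at each day asked which circulating miRNAs went with FK506 in grafted animals. With 1 library per group it has no replicate check. The size rule used here asked for 50 or more reads in either library and a log2 ratio beyond 1 or -1. At day 3 the summed family was 1.44-fold lower with FK506 (interval 1.41 to 1.47). Of the 9 members with enough reads 3 were lower, let-7a-5p (2.42-fold), let-7f-5p (2.18-fold) and let-7i-5p (2.02-fold), against 11.1% of all 99 miRNAs compared. Only let-7b-5p was higher (2.84-fold, 2.44 to 3.31), against 21.2% of all, and scaled to the library total its log2 ratio was 0.90. The median of the 9 was -0.15, and that of all 99 miRNAs was 0.04.

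At day 7 the summed family was 4.60-fold lower with FK506 (4.50 to 4.71). Of 10 members 5 were lower, against 46.5% of all 129 miRNAs compared, so the share is close to the background. They were let-7e-5p with 18 reads with FK506 against 3993 without it, let-7a-5p (10.8-fold lower, 10.2 to 11.5), let-7f-5p (9.79-fold, 9.30 to 10.3), miR-98-5p (10.3-fold, 7.64 to 14.2) and let-7i-5p (2.96-fold). Only let-7d-3p was higher (2.17-fold, 1.89 to 2.50), against 19.4% of all. The median of the 10 was -1.27, beside -0.74 for all 129 miRNAs. The other 4 members lay between these bounds, from let-7b-5p at -0.98 to let-7c-5p at -0.27. Per read outside the red cell pair all of these 4 turned positive (let-7b-5p 0.09, let-7d-5p 0.58, let-7g-5p 0.69 and let-7c-5p 0.80), and let-7i-5p was at -0.49.

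At day 14 the summed family was 3.21-fold lower with FK506 (3.15 to 3.26). Of 9 members 5 were lower, against 15.4% of all 130 miRNAs compared, and 0 were higher, against 20.8% of all. The 5 were let-7a-5p (5.67-fold lower), let-7d-5p (4.48-fold), let-7i-5p (4.41-fold), let-7f-5p (3.93-fold) and miR-98-5p (2.15-fold, 1.68 to 2.76). The median of the 9 was -1.08 and that of all miRNAs was 0.01. TMM gave the FK506 day 14 library an effective size of 2.08 times its total and the untreated day 14 library 0.830 times. Scaling to the total therefore raised the ratio of every miRNA at this day. On that scale the summed family was at a log2 ratio of -0.35 and let-7a-5p at -1.18. Those of let-7b-5p (1.34), let-7d-3p (1.39) and let-7g-5p (1.05) were above 1. The share of all miRNAs above 1 on that scale is not given here, so these are not read as let-7 results. The sign of the ratio for let-7c-5p, let-7g-5p and miR-98-5p at day 14 thus turned with the scaling, and that of let-7a-5p, let-7f-5p, let-7i-5p and let-7d-5p did not.

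**Figure D4:**
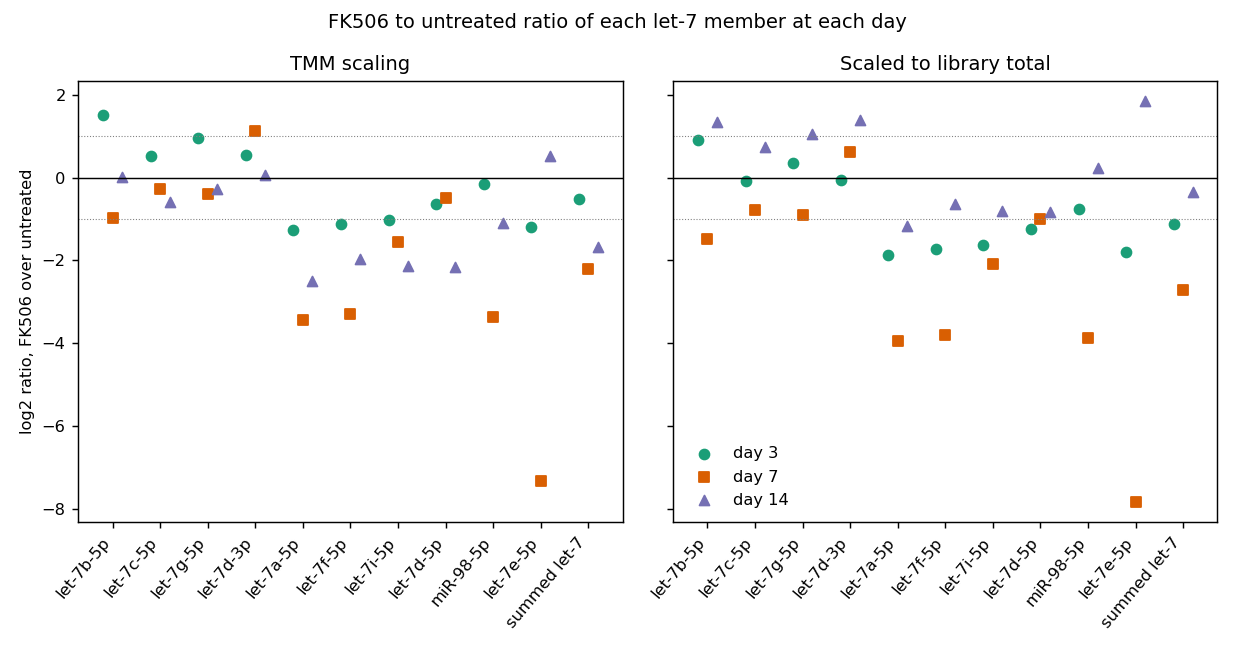
The log2 ratio of FK506 over untreated (y axis) for each member and for the summed family, by day, with TMM scaling in the left panel and scaled to the library total in the right panel; each point compares 2 libraries, the solid line is 0 and the dotted lines are 1 and -1. The points of let-7a-5p and let-7f-5p are below 0 at all 3 days in both panels, at -1.18 or less for let-7a-5p.

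Across the 3 days all 6 libraries entered 1 edgeR quasi-likelihood fit that held a term for day and a term for treatment. In this fit 0 of the 10 members passed an adjusted p of 0.05, and of all 153 miRNAs 0% passed. Below an unadjusted p of 0.05 were 3 members, all lower with FK506, where 5.88% of all miRNAs were lower and 5.23% higher at that level. They were let-7a-5p, with a log2 change of -2.41 ± 0.712 (SE, edgeR adjusted p 0.185), let-7f-5p at -2.12 ± 0.713 (0.284) and let-7i-5p at -1.57 ± 0.646 (0.380), each lower at 3 of 3 days. DESeq2 called 2 members lower, let-7a-5p at -2.46 (adjusted p 0.00532) and let-7f-5p at -2.17 (0.0141), and these were the only miRNAs it called lower (1.31% of 153). With limma-voom 0 members passed.

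The other members in the fit did not reach an unadjusted p under 0.05. The log2 change was -1.50 ± 0.758 for miR-98-5p (edgeR adjusted p 0.462), -2.21 ± 1.42 for let-7e-5p (0.609) and -1.08 ± 0.646 for let-7d-5p (0.609). It was -0.12 ± 0.626 for let-7c-5p (0.968), 0.09 ± 0.624 for let-7g-5p (0.968) and 0.17 ± 0.684 for let-7b-5p (0.968), all close to 0. The only larger positive value was 0.58 ± 0.602 for let-7d-3p (0.802). The median over the 10 was -1.29. Without the untreated day 7 library the change was -1.90 ± 0.473 for let-7a-5p (adjusted p 0.325) and -1.56 ± 0.464 for let-7f-5p (0.371).

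Within each arm the later days were compared with day 3. With FK506 the summed family was 1.48-fold lower at day 7 than at day 3 (interval 1.44 to 1.52) and 1.89-fold lower at day 14 (1.85 to 1.93). Scaled to the library total the day 14 direction turned, to 1.58-fold higher. At FK506 day 7 1 of 9 members passed the size rule on the higher side, let-7d-3p (2.02-fold, 1.74 to 2.37), against 3.23% of all 93 miRNAs, and 0 on the lower side, against 6.45%. At FK506 day 14 2 of 9 were lower than at day 3, let-7c-5p (2.45-fold, 2.36 to 2.55) and let-7b-5p (2.22-fold, 1.98 to 2.49), against 16.4% of all 128, and 0 were higher, against 10.2%. Scaled to the library total let-7c-5p was at a log2 ratio of 0.29 and let-7b-5p at 0.43. On that scale let-7d-3p (1.43) and miR-98-5p (1.09) were past the size rule on the higher side. The share of all miRNAs past it on that scale is not given here.

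In untreated serum the summed family was 2.16-fold higher at day 7 than at day 3 (2.13 to 2.19) and 1.18-fold higher at day 14 (1.16 to 1.20). Per read outside the pair the day 7 fold was 1.10. The day 14 direction turned to 0.974-fold on that scale and to 0.924-fold with the library total. At untreated day 7 5 of 10 members were higher, against 47.7% of all 128 miRNAs, and 0 were lower, against 14.1%. The 5 were let-7e-5p, miR-98-5p (6.60-fold, 5.36 to 8.20), let-7a-5p (4.42-fold), let-7b-5p (3.83-fold, 3.34 to 4.40) and let-7f-5p (2.60-fold). The other 5 did not reach the rule, from let-7d-5p at 0.896-fold to let-7g-5p at 1.43-fold. At untreated day 14 0 of 9 members were higher, against 10.8% of all 102, and 0 were lower, against 6.86%, and the largest log2 ratio was 0.68 for let-7d-5p. In the fit across arms edgeR called 0 members and 0% of all miRNAs between any 2 days, with let-7e-5p having the smallest p for day 7 against day 3 (unadjusted 0.00343, adjusted 0.524). It was the single member under an unadjusted p of 0.05 in the contrasts of day 7 with day 3 (4.58% of all miRNAs) and of day 14 with day 7 (7.19% of all), so 1 of 10 is near the background. Between days 3 and 14 there were 0 such members, and DESeq2 and limma-voom called 0 members between days.

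The member let-7e-5p was nearly confined to the untreated day 7 library. It had 5, 18 and 39 reads with FK506 at days 3, 7 and 14, and 18, 3993 and 10 without it. Its TMM-scaled level was 773 CPM in untreated day 7 and between 1.44 and 4.79 CPM in the other 5 libraries. At day 7 it was 161-fold lower with FK506 (interval 102 to 272), while at day 14 FK506 had the higher count of the pair (1.44-fold, 0.704 to 3.22).

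Its hairpin lies 367 nt from that of miR-125a on chromosome 17, and miR-99b belongs to the same cluster. The 2 neighbours did not share its pattern to the same extent. There were 337, 316 and 698 reads of miR-99b-5p with FK506 at days 3, 7 and 14, and 191, 729 and 147 without it. Those of miR-125a-5p were 447, 367 and 747 with FK506 and 433, 1379 and 221 without it. The ratio of let-7e-5p to miR-99b-5p was 5.48 (5.06 to 5.94) in untreated day 7 and 0.0148 to 0.0942 in the other 5 libraries. Over miR-125a-5p it was 2.90 (2.72 to 3.08) in untreated day 7 and 0.0112 to 0.0522 in the others. Relative to untreated day 3, untreated day 7 was 234-fold higher for let-7e-5p (148 to 394), 4.02-fold for miR-99b-5p (3.42 to 4.74) and 3.35-fold for miR-125a-5p (3.01 to 3.74).

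The neighbours of other let-7 hairpins were read in the same way. The hairpin of miR-100 lies 5211 nt from Mirlet7a-2 and that of miR-99a 656 nt from Mirlet7c-1. At day 7 miR-100-5p had 14 reads with FK506 and 221 without it, miR-125b-5p had 65 and 552, and miR-99a-5p had 15 and 82. Of the 5 neighbours, 4 were past the size rule on the lower side at day 7 (all but miR-99b-5p), which compares with 5 of 10 let-7 members and 46.5% of all miRNAs. At day 3 miR-99b-5p was 2.76-fold higher with FK506 (2.30 to 3.31), while let-7e-5p had 5 reads with FK506 and 18 without it.

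The nervous-system miRNAs stood with let-7e-5p in that library. There were 0 reads of miR-9-5p in each FK506 library, and 1, 7683 and 0 in untreated serum at days 3, 7 and 14. The neuronal miR-124-3p had 0 reads in 5 libraries and 182 in untreated day 7, and the oligodendrocyte miR-219-2-3p had 0 reads in those 5 and 467 in untreated day 7. Of the list of 9, 3 had no read outside untreated day 7 (miR-9-3p, miR-124-3p and miR-219-2-3p), while miR-128-3p had 96 to 457 reads in each of the other libraries. The part of such a source in the day 7 values of let-7a-5p, let-7e-5p, let-7f-5p and miR-98-5p was not tested. The differences at days 3 and 14 given above do not compare that library. Their TMM scaling and count filter were set on all libraries together, including that one. Shares and ratios within a library do not use it.

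**Figure D5:**
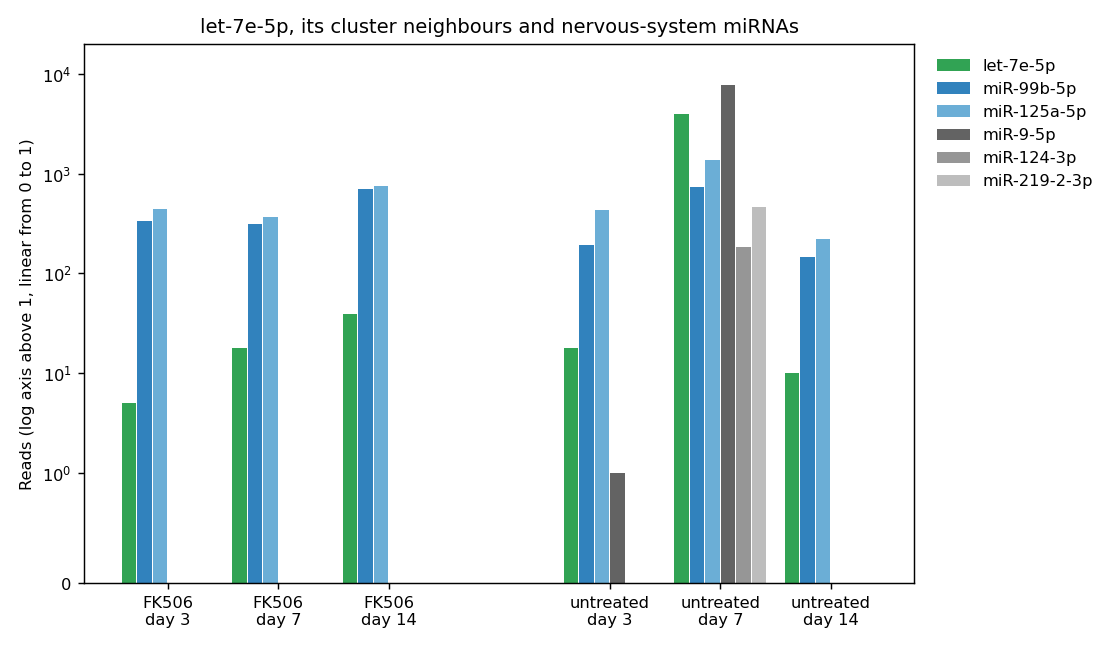
Read counts (y axis, log above 1 and linear from 0 to 1) of let-7e-5p, 2 miRNAs of its cluster and 3 nervous-system miRNAs in each library (x axis), with FK506 left of untreated; each bar is 1 library. The let-7e-5p bar reaches 3993 reads in untreated day 7 and at most 39 elsewhere, while miR-99b-5p and miR-125a-5p have at least 147 reads in every library.

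The profile of the summed family over the 6 libraries was compared with those of 66 other miRNAs that had at least 50 reads in every library. Likeness was the root mean square difference of centred log2 TMM-scaled levels, which share depth and scaling. The closest were miR-26b-5p (0.33), miR-744-5p (0.36), miR-320-3p (0.45), miR-181d-5p (0.55) and miR-181c-5p (0.64), beside a median of 1.05 over the 66. The closest, miR-26b-5p, had 98, 84 and 265 reads with FK506 at days 3, 7 and 14, and 195, 379 and 155 without it. Relative to its own mean the summed family stood at -0.24, -0.80 and -1.16 on the log2 scale with FK506, and at 0.28, 1.40 and 0.52 without it.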

How the data were processed

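Serum small RNA of 6 libraries was analysed from the authors' deposited table of raw counts for mature miRNAs. Per the labels' protocols, the authors size-selected short RNA, trimmed linkers, kept reads of 15 to 29 nt and matched them to mouse entries of miRBase version 20 with Bowtie, which the submitters' processing notes also name. No source used here gives its version or mismatch setting.

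Libraries were scaled by TMM (edgeR 4.0.16 under R 4.3.3) on 153 miRNAs that passed filterByExpr (minimum count 10, treatment as group). Log2 ratios of single libraries used a prior count of 2, and folds with intervals used none. The quasi-likelihood fit had day and treatment as terms, 2 residual degrees of freedom, and Benjamini-Hochberg adjustment over all miRNAs fitted. Its spread comes from how single libraries depart from these terms, and may be technical. It was tested on counts generated with known answers, with a common dispersion and no outlying library. That setting is simpler than these data, and the rate at which changes were found is not given here. DESeq2 1.42.0, limma 3.58.1, other scalings, filters and left-out libraries were alternatives. Groups came from sample titles.

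The members, lists and tests were chosen with earlier results of these data known. The miRNAs named were the 10 members, their cluster neighbours, marker miRNAs and the 5 closest profiles. The within-library ratios were picked after their values were seen.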

Additional observations from a re-analysis of the deposited data

How the results depend on the processing

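The direction of the summed family (log2 ratios of -0.53, -2.20 and -1.68 at days 3, 7 and 14 with TMM) held between the arms under every scaling tried, but its size did not. Scaled to the library total the log2 ratios were -1.13, -2.71 and -0.35, per read outside miR-486-5p and miR-3107-5p they were -0.56, -1.13 and -1.42, and with median-of-ratios factors they were -0.73 at day 3 and -1.62 at day 14. Without let-7e-5p the day 7 value was -2.10, and without let-7d-3p the values were -2.28 at day 7 and -1.71 at day 14.

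With the library total as the scale, 0 members were past the size rule on the higher side at days 3 and 7. On the lower side that scale added let-7d-5p at day 3 (log2 ratio -1.23) and let-7b-5p at day 7 (-1.49). It put let-7d-5p at -1.01 at day 7. There were 3 higher and 1 lower at day 14, and 2 higher and 0 lower at FK506 day 14 against day 3. Per read outside the red cell pair, 3 were higher and 2 lower at untreated day 7 against day 3. A floor of 10 reads gave 2 higher at FK506 day 7 and 1 higher at FK506 day 14 against day 3. The share of all miRNAs past the rule is not given here for these scales and this floor. The counts are therefore not read as let-7 results.

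DESeq2 called 2 members lower with FK506. Without a filter edgeR called 1 member, let-7e-5p, higher at day 7 than day 3 and lower at day 14 than day 7. It called 9 of 507 miRNAs in the first of these contrasts and 6 of 507 in the second. Per read outside the pair let-7e-5p was called in the same directions. It was the only 1 of 153 miRNAs called in each contrast. Without the FK506 day 14 library, which leaves 1 library at day 14, the log2 change of let-7e-5p from day 7 to day 14 was -7.87. With all libraries it was -5.55.

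Small changes turned sign. The value for let-7b-5p was -0.013 with no day term and ran from -0.35 to 0.75 over left-out libraries. For let-7c-5p it was 0.32 per read outside the pair, 0.024 without a filter, 1.35 relative to the family and -0.29 to 0.21 over left-out libraries. It was 0.35 for let-7d-5p relative to the family, and -0.19 to 0.36 for let-7g-5p over left-out libraries. No such change in let-7b-5p, let-7c-5p, let-7d-5p or let-7g-5p passed the test under any of 14 alternatives. The difference in mean share between the arms moved by less than 1 SD between libraries in 78 of 78 alternatives, those leaving out a library being chosen after seeing the data. This rule is loose, because the untreated day 7 library widens the SD (3.87 around an untreated mean of 2.28% for let-7e-5p). It does not show that a direction held. Apart from day 7 the untreated shares of let-7e-5p were 0.0625% and 0.0360%, below its FK506 mean of 0.133%. The causes were not tested. Counts of let-7e-5p (5 to 39 reads in 5 libraries) and miR-98-5p at FK506 day 7 (46 reads) limit what these members can show.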

Other observations

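The ratio of let-7f-5p to let-7a-5p, singled out after its values were seen, was lowest at day 7 in both arms. It was 2.24 (interval 2.09 to 2.41), 1.31 (1.22 to 1.42) and 2.66 (2.53 to 2.80) with FK506 at days 3, 7 and 14. In untreated serum it was 2.02 (1.94 to 2.09), 1.19 (1.16 to 1.21) and 1.85 (1.78 to 1.92). The FK506 to untreated ratio was 1.11, 1.11 and 1.44 at days 3, 7 and 14. The 9 neuron and glia miRNAs summed to 80.7 CPM at FK506 day 7 and to 2355 CPM at untreated day 7. They summed to 46.1 and 46.6 CPM in the other FK506 libraries and to 25.4 and 27.2 CPM in the other untreated ones. At FK506 day 7, 7 of the 9 had no read. Of the 303 reads there, 282 were miR-128-3p and 21 were miR-204-5p, which had reads in every library. At untreated day 7 all 9 had reads. The part of these 9 miRNAs in the ratio was not tested. No test was made of the day difference, which rests on 1 library per arm and day.

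The table held 13 other entries named let-7 or miR-98, most of them passenger strands. Of these 10 had a read in any library, and together they had 51 reads over the 6 libraries, against 161384 for the 10 members. The highest count was 6, for let-7b-3p in untreated day 7. Apart from let-7d-3p, which had 242 to 756 reads in every library, the 3′ arms were therefore near the limit of detection at this depth. The entries let-7j and let-7k had 4 and 0 reads.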
